A study of Mus musculus with 8 samples.

Results

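The genes described here are 10 precursors of neuropeptides that cortical neurons make, *Cck*, *Npy*, *Sst*, *Vip*, *Crh*, *Tac2*, *Cort*, *Adcyap1*, *Pnoc* and *Nts*. They were picked by gene symbol, and all 10 were found among the 15039 genes measured. RNA sequencing compared the PFC of Rnf146-overexpressing mice with that of eGFP-overexpressing control mice, with 4 libraries in each group. All animals were wild-type C57BL/6NCrljOri males that received an AAV2/1 vector in both hemispheres of the PFC at an age of 6 weeks, and the tissue was taken 4 weeks later. The vector of the treated group carried mouse Rnf146 joined to eGFP and that of the control group eGFP alone, each under the hsyn promoter, which is active in neurons. The Rnf146-overexpressing mice used for sequencing were ones in which overexpression and social deficits had already been observed. The question here is whether the neuropeptide genes of the PFC differed between the groups, and whether they did so together.

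Neuropeptides are cut from larger precursors by convertases inside dense-core vesicles and act on G protein-coupled receptors, usually more slowly and over a wider range than fast transmitters. In the cortex, *Sst*, *Npy*, *Cort*, *Vip*, *Tac2*, *Crh* and *Pnoc* are made mainly by sets of GABAergic interneurons and are used to name them. *Cck* is made by a class of interneurons and by many excitatory neurons, and *Adcyap1* mainly by excitatory neurons. *Nts* is sparse in the cortex and is made by many neurons of the neighbouring lateral septum.

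The values are log2 expression with a variance-stabilizing transformation, which compresses the changes of weakly expressed genes. They had also been centred within each pair of libraries with the same replicate number, so that what is left of a gene is a mean and 4 differences, and its groups are separated only when all 4 differences have the same sign. All differences below are Rnf146 minus eGFP within a pair, on this log2 scale unless a count ratio is named. Over all genes the median of these differences lay between -0.0020 and 0.0037 in the 4 pairs. A count ratio is an estimate made by taking the values back to normalized counts along a fitted curve. The test was limma, blocked on replicate number, and genes with an adjusted p up to 0.1 are termed called. A fit without the block counts the centred values as 8 independent libraries, so its p-values are too small. They are given for comparison only. Depth is unknown, since such values do not hold library totals. Values are not set against each other between genes, as they are not per length. *Rnf146* itself was higher in all 4 Rnf146 libraries, with differences of 2.82, 2.51, 2.66 and 2.58.

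The neuropeptide genes did not all move in the same direction. *Nts* was called and rose, and *Pnoc* was also higher in all 4 pairs, whereas *Cck*, *Vip* and *Adcyap1* were lower in all 4. *Npy*, *Sst*, *Cort*, *Crh* and *Tac2* had differences of mixed sign. In all, 1 of the 10 genes was called, against 1.25% of the genes tested, and it was higher, against 0.818% called higher. The number called lower was 0, against 0.432%. At an unadjusted p below 0.05, limma gave 4 of the 10, *Cck*, *Vip*, *Pnoc* and *Nts*, against 12.4%. The same direction in all 4 pairs was found in 5 of the 10 genes, against 20.6% of all genes. Of these 5, 2 were higher and 3 were lower, against 10.4% and 10.2%. The median difference of the 10 genes was -0.08, beside a median of 0.00086 for all genes. By pair, 7, 8, 5 and 4 of the 10 genes were lower in the Rnf146 library.

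**Figure D1:**
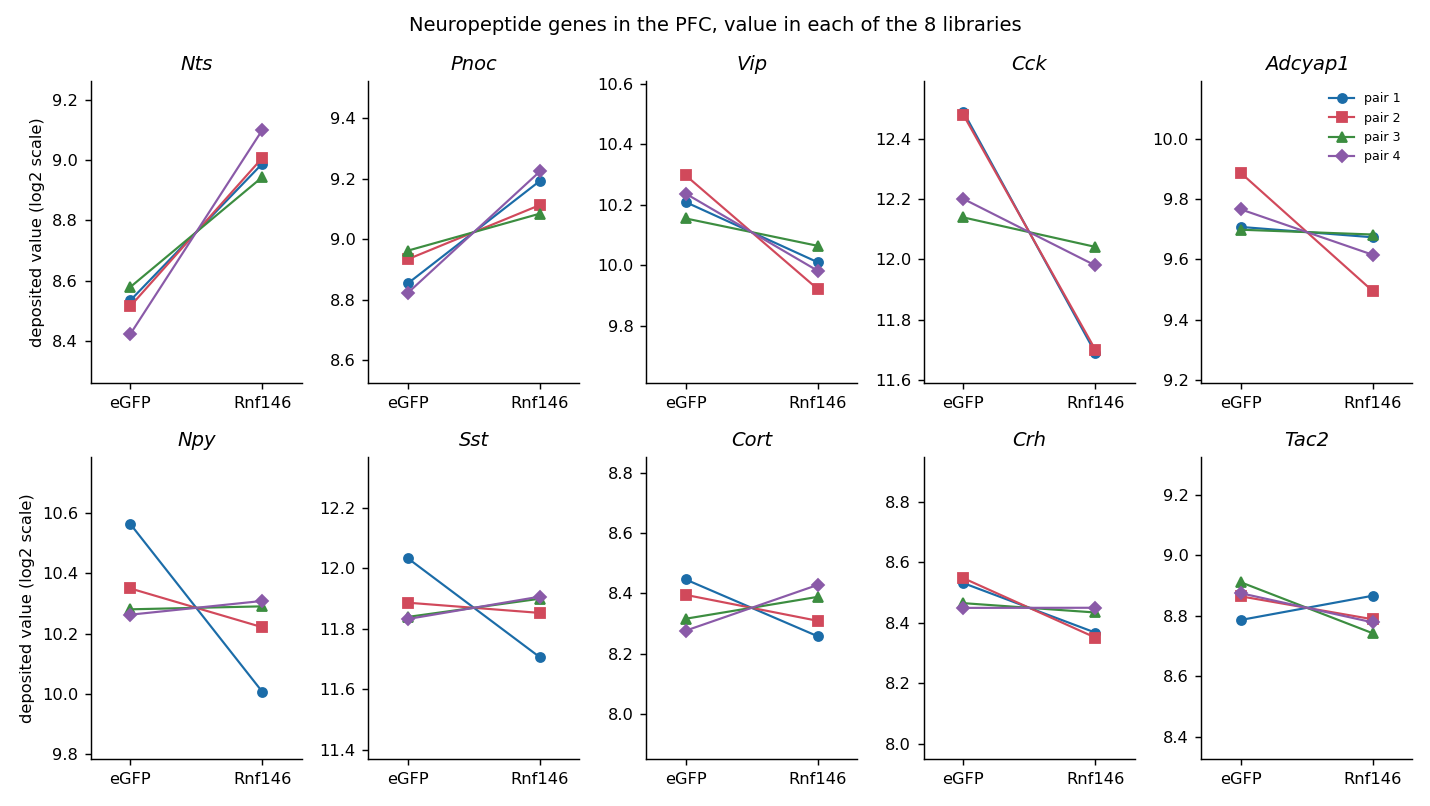
Value of each neuropeptide gene (log2 scale, vertical axis, each panel spanning 1 unit) in the 4 eGFP and 4 Rnf146 libraries, with lines joining the libraries of a pair. The lines of *Nts* and *Pnoc* all rise, those of *Cck*, *Vip* and *Adcyap1* all fall, and those of the other genes run both ways; the shared crossing point is the result of the centring.

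*Nts* (chromosome 10 of GRCm39, 102317614 to 102326396, minus strand) encodes the precursor of neurotensin and neuromedin N. Its value was 8.54, 8.52, 8.58 and 8.42 in the eGFP libraries 1 to 4 and 8.99, 9.01, 8.94 and 9.10 in the Rnf146 libraries. The groups did not overlap. In values centred within pairs this restates that all 4 differences were positive, which held for 10.4% of all genes. The pair differences were 0.45, 0.49, 0.36 and 0.68. They averaged 0.50 ± 0.13 (SD, n = 4 pairs), with a 95% interval from limma of 0.37 to 0.63. The adjusted p was 0.015 with the replicate block. Expression of *Nts* was weak, with the curve placing it near 119 normalized counts. At 100 counts a doubling of the count moves the log2 value by only 0.33. On the count scale, its RNA was an estimated 2.67 times as abundant in Rnf146 libraries, with a 95% interval of 2.05 to 3.49. The estimated ratio of each pair was 2.44, 2.64, 2.04 and 3.88. Leaving out a pair at a time, the difference stayed between 0.44 and 0.54 and the adjusted p between 0.022 and 0.098. Only 0.372% of all genes had a larger mean difference in either direction.

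The receptors of neurotensin were not called. *Ntsr1* and *Ntsr2*, the G protein-coupled receptors, had differences of -0.05 ± 0.20 and 0.04 ± 0.08 (SD, n = 4 pairs), with adjusted p-values of 0.823 and 0.810. *Sort1*, which encodes the sorting receptor sortilin, was lower in all 4 pairs by a small amount, with a mean of -0.08 ± 0.04 and an adjusted p of 0.497.

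*Pnoc* (chromosome 14, 65638122 to 65663196, minus strand) encodes the precursor of nociceptin, an opioid-like peptide. It read 8.85, 8.93, 8.96 and 8.82 in the eGFP libraries and 9.19, 9.11, 9.08 and 9.22 in the Rnf146 libraries. Here too the groups did not overlap, which again restates the shared sign of the 4 differences, and the gap was narrower than in *Nts*. Its pair differences were 0.34, 0.18, 0.12 and 0.40, and the mean was 0.26 ± 0.13 (SD, n = 4 pairs). The adjusted p was 0.116 with the block, so that *Pnoc* was not called. The unblocked fit, whose p-values are too small, gave 0.0071. The estimated count ratio was 1.52, with a 95% interval of 1.22 to 1.89. *Oprl1*, the nociceptin receptor gene, had a mean of -0.03 ± 0.20 and an adjusted p of 0.923.

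*Cck* (chromosome 9, 121315695 to 121324863, minus strand) encodes cholecystokinin, an abundant cortical peptide. In the eGFP libraries its value was 12.49, 12.48, 12.14 and 12.20, and in the Rnf146 libraries 11.69, 11.70, 12.04 and 11.98. The libraries of pairs 1 and 2 stood far apart and those of pairs 3 and 4 close together. The estimated count ratio was accordingly 0.544 and 0.553 in pairs 1 and 2, and 0.928 and 0.845 in pairs 3 and 4. The mean difference of -0.47 had a 95% interval from limma of -0.74 to -0.21. It was not called with the block (adjusted p = 0.146), and was called without pair 3 (adjusted p = 0.093). The unblocked fit, whose p-values are too small, gave an adjusted p of 0.025. The paper counts *Cck* among its own downregulated genes, from an analysis at an FDR up to 0.1. That analysis gave 294 genes, while limma with the block called 188 here, so the same threshold is not like for like. *Cckbr*, the main cholecystokinin receptor of the brain, was lower in the same 2 pairs, by -0.24 and -0.29, and stood at 0.02 and 0.08 in pairs 3 and 4.

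*Vip* (chromosome 10, 5589186 to 5599956, plus strand) encodes vasoactive intestinal peptide, made by interneurons that inhibit other interneurons. Its values were 10.21, 10.30, 10.15 and 10.24 with eGFP and 10.01, 9.92, 10.06 and 9.98 with Rnf146. All 4 Rnf146 libraries were below all 4 eGFP libraries, which restates that all 4 differences were negative, as in 10.2% of all genes. The differences were -0.20, -0.38, -0.09 and -0.26. They averaged -0.23 ± 0.12 (SD, n = 4 pairs). Blocked, its adjusted p was 0.143, and unblocked, where p-values are too small, 0.0086. The estimated count ratio was 0.792, with a 95% interval of 0.696 to 0.902. *Vipr1*, a receptor of this peptide, had the lowest mean of the receptor genes, -0.20 ± 0.28, and was higher in pair 3 only.

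*Adcyap1* (chromosome 17, 93506397 to 93515189, plus strand) encodes PACAP, a peptide related to vasoactive intestinal peptide. Its value was 9.71, 9.89, 9.70 and 9.77 in the eGFP libraries and 9.67, 9.50, 9.68 and 9.62 in the Rnf146 libraries. Its differences of -0.03, -0.39, -0.02 and -0.15 had 1 sign, but pairs 1 and 3 barely differed. The mean was -0.15 ± 0.17 (SD, n = 4 pairs), smaller than the spread, with an adjusted p of 0.428. *Adcyap1r1*, its receptor, had a mean of 0.11 ± 0.13 and was lower in pair 3 only (adjusted p = 0.455).

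**Figure D2:**
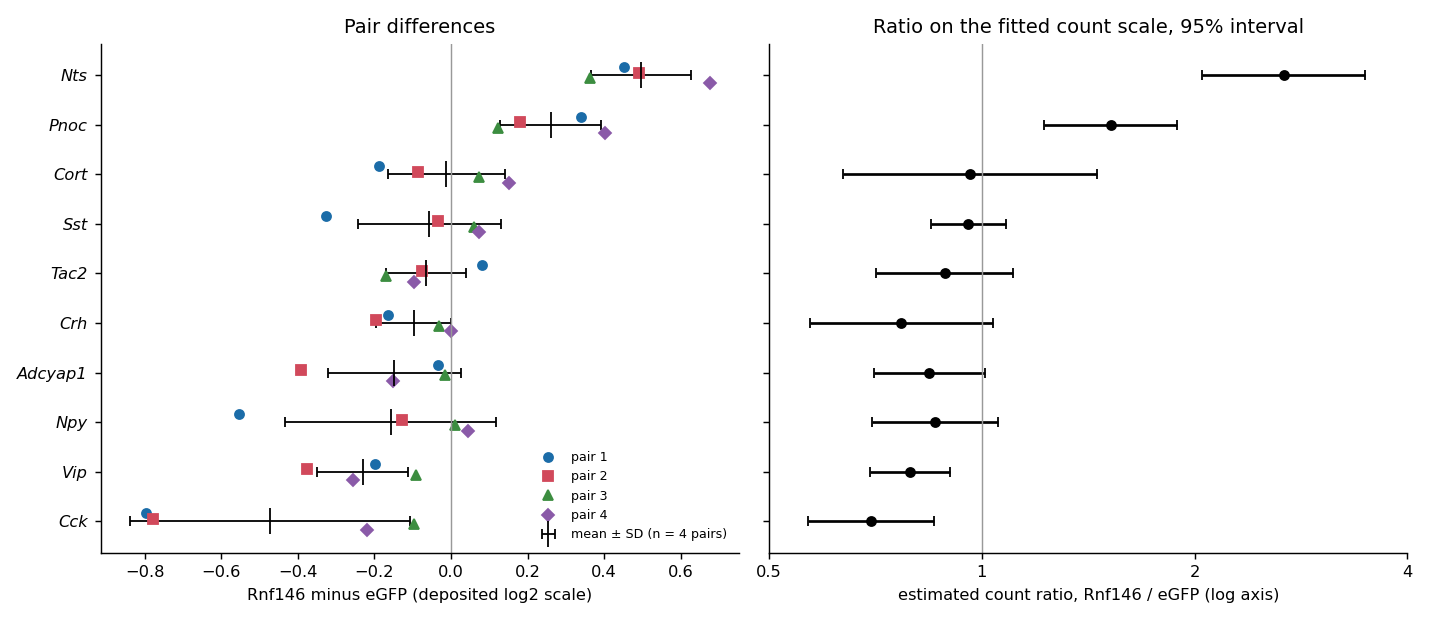
Left, the 4 pair differences of each gene (Rnf146 minus eGFP, log2 scale) with the mean and SD over pairs; right, the estimated count ratio on a log axis with its 95% interval from limma. The interval of *Nts* starts above a ratio of 2, those of *Pnoc*, *Vip* and *Cck* leave out 1, and those of the other 6 genes include 1. The intervals are not adjusted for the number of genes tested, and of the 10 genes only *Nts* was called.

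Somatostatin, neuropeptide Y and cortistatin are peptides of overlapping sets of interneurons, and all dampen the activity of target cells. Each was lowest in pair 1. *Sst* (chromosome 16, 23707321 to 23711733, minus strand) had differences of -0.33, -0.03, 0.06 and 0.07. In *Npy* (chromosome 6, 49799026 to 49806489, plus strand) they were -0.55, -0.13, 0.01 and 0.05. *Cort* (chromosome 4, 149209491 to 149211266, minus strand), whose product acts on the somatostatin receptors, had -0.19, -0.09, 0.07 and 0.15. In all 3 genes, then, pairs 1 and 2 were lower and pairs 3 and 4 were higher with Rnf146. The means were -0.06 ± 0.19 for *Sst*, -0.16 ± 0.28 for *Npy* and -0.01 ± 0.15 for *Cort* (SD, n = 4 pairs), each smaller than its spread. Adjusted p-values were 0.798, 0.535 and 0.960. For *Sst* the 95% interval of the count ratio from limma was 0.846 to 1.08, while the ratio of pair 1 alone was 0.776. The interval was 0.699 to 1.06 for *Npy* and 0.637 to 1.45 for the weakly expressed *Cort*. Without pair 1 the mean of *Npy* was -0.02, and that of *Sst* turned to 0.03.

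Of the somatostatin receptors, *Sstr1* and *Sstr4* were lower in all 4 pairs, with means of -0.12 ± 0.11 and -0.11 ± 0.11 (SD, n = 4 pairs). *Sstr2* had a mean of -0.12 ± 0.15 and was higher in pair 3, and *Sstr3* stood at -0.0069 ± 0.13. None of the 4 was called, with adjusted p-values from 0.412 to 0.978. The neuropeptide Y receptors *Npy1r*, *Npy2r* and *Npy5r* had means of -0.06, 0.05 and -0.0048. *Npy5r* differed by no more than 0.03 in any pair.

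*Crh* (chromosome 3, 19747565 to 19749655, minus strand), which encodes the stress peptide corticotropin-releasing hormone, had differences of -0.16, -0.20, -0.03 and 0.00035. The adjusted p was 0.458 when blocked and 0.080 when not, where p-values are too small. The mean was -0.10 ± 0.10 (SD, n = 4 pairs). Because *Crh* lay at only about 58.5 normalized counts on the curve, this difference stands for an estimated count ratio of 0.769, with a 95% interval of 0.571 to 1.04. *Crhbp*, whose protein binds and holds the hormone, had a mean of -0.12, *Crhr1* of -0.06 and *Crhr2* of 0.23 ± 0.24 (SD, n = 4 pairs). *Tac2* (chromosome 10, 127560347 to 127567638, plus strand), the neurokinin B precursor in the mouse, ran the other way in pair 1, with 0.08, -0.08, -0.17 and -0.10. Its mean of -0.07 ± 0.10 was smaller than the spread, with an adjusted p of 0.670.

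The receptors above were named by their ligand. Of the 21 receptor and binding protein genes listed, 17 were in the table and 0 of the 17 were called by limma. *Cckar*, *Sstr5*, *Vipr2* and *Tacr3* were not analysed here. Of the 17, 0 were higher and 3 were lower in all 4 pairs, and their median difference was -0.06. Of the genes that process and release peptides, all 17 were in the table, 0 were called, and their median difference was -0.05 with a range of -0.24 to 0.05. *Pcsk1*, a convertase that cuts prohormones, had the lowest mean, -0.24 ± 0.17 (SD, n = 4 pairs, adjusted p = 0.202), and was lower in all 4 pairs. The granin-family precursor *Vgf* had -0.48 in pair 1 and -0.10, -0.03 and 0.09 in the others, close to the differences of *Npy* in each pair.

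**Figure D3:**
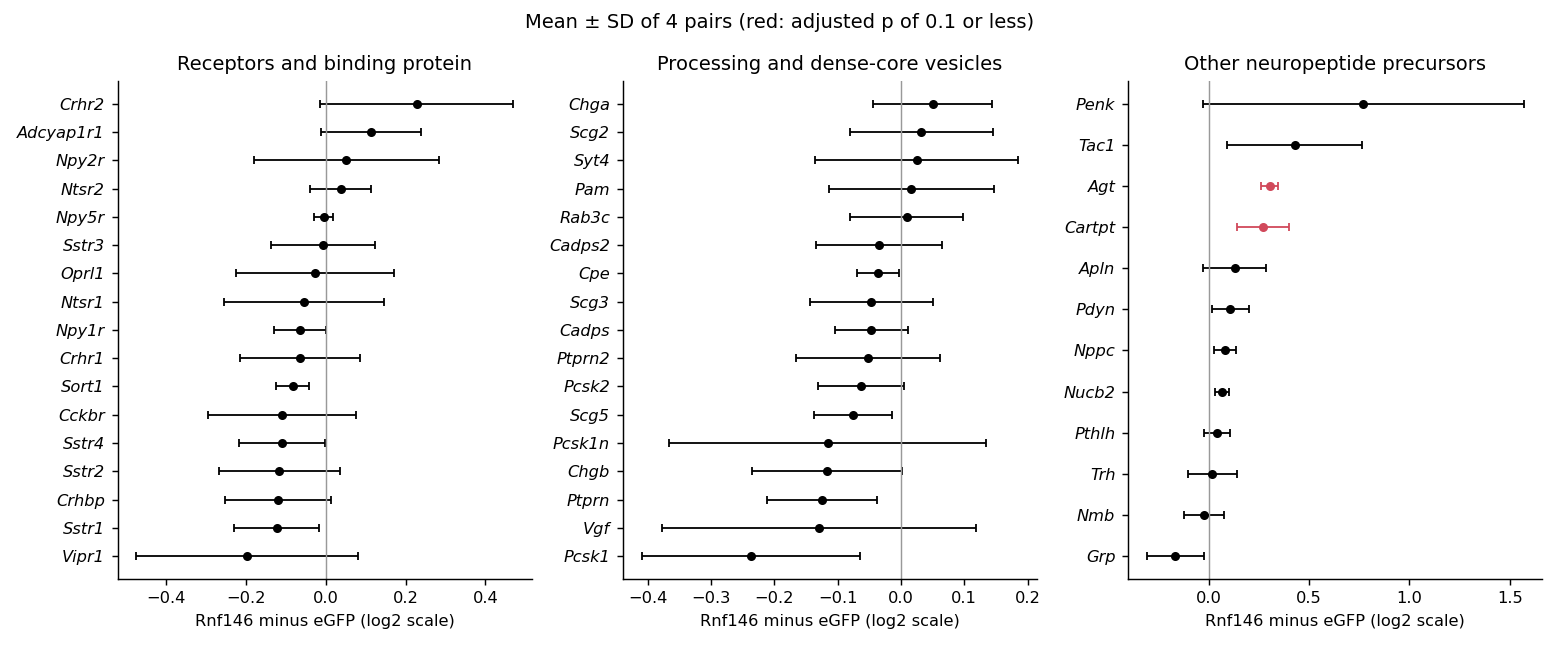
Mean difference and SD over 4 pairs (Rnf146 minus eGFP, log2 scale) for receptors, processing genes and other neuropeptide precursors, with called genes in red. No receptor or processing gene is red, and 2 of the 12 other precursors, *Agt* and *Cartpt*, are.

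Among 27 precursors of other neuropeptides, 12 were in the table, and 2 were called, both higher. *Agt*, which encodes angiotensinogen and is made mainly by astrocytes in the brain, had differences of 0.35, 0.32, 0.29 and 0.25. The mean was 0.30 ± 0.04 (SD, n = 4 pairs), and limma gave an adjusted p of 0.024. *Cartpt*, the CART peptide precursor, had 0.35, 0.08, 0.35 and 0.29, with a mean of 0.27 ± 0.13 and an adjusted p of 0.095. *Penk* and *Tac1*, which encode enkephalins and substance P and are abundant in striatal medium spiny neurons, had larger but uneven differences. *Penk* had -0.19, 1.71, 1.02 and 0.54, and *Tac1* 0.03, 0.78, 0.62 and 0.28, with adjusted p-values of 0.244 and 0.161. The median of the 12 genes was 0.09, and 10 had a mean above 0.

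Some lists of markers of other cells and regions held called genes, and others held none. The lists were chosen with earlier results of these data known, so their counts are a description only. In bulk tissue, fewer cells of a type and less RNA per cell cannot be told apart. Of 10 marker genes of septum and basal forebrain, 4 were in the table, and all 4 were called and higher, against 0.818% of all genes. *Zic1* and *Zic2*, transcription factors of that region, had means of 0.99 ± 0.38 and 0.53 ± 0.15, and *Slc5a7* and *Zic4* of 0.51 ± 0.27 and 0.34 ± 0.16 (SD, n = 4 pairs). The mean value of the 4 genes ran from 9.37 to 9.61 in the eGFP libraries and from 9.94 to 10.17 in the Rnf146 libraries. In values centred within pairs, this separation restates that the list mean was higher in all 4 pairs. The same held for 10.4% of single genes. *Chat*, *Slc18a3*, *Lhx8*, *Nkx2-1* and *Gbx1* were among the markers not analysed here. The list mean was 0.57, 0.80, 0.33 and 0.65 in the 4 pairs, beside 0.45, 0.49, 0.36 and 0.68 for *Nts*, and its part in the *Nts* difference was not tested. The 11 striatal markers in the table, of 12 listed, gave -0.05, 1.16, 0.61 and 0.25, and 1 of them, the transcription factor *Six3*, was called at 0.64. *Drd2* and *Adora2a*, which encode dopamine and adenosine receptors, had the largest means, 0.74 ± 0.54 and 0.70 ± 0.74 (SD, n = 4 pairs), with adjusted p-values of 0.119 and 0.255. Of the 11 genes, 5 were higher in all 4 pairs, and the part of this list in the differences of *Nts*, *Penk* and *Tac1* was not tested.

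Of 9 general markers of GABAergic neurons, 5 were called and higher, against 0.818% of all genes. Among them were *Gad1* and *Gad2*, which encode the GABA-synthesizing enzymes, with means of 0.45 ± 0.13 and 0.64 ± 0.12 (SD, n = 4 pairs). The vesicular GABA transporter *Slc32a1* and the transcription factors *Dlx1* and *Dlx6* had 0.53, 0.37 and 0.34. The list mean ran from 10.64 to 10.75 in the eGFP libraries and from 10.95 to 11.06 in the Rnf146 libraries. This again restates that the list mean was higher in all 4 pairs. Of 19 markers of cortical interneuron subclasses, in contrast, 0 were called, 14 had a mean below 0 and the median was -0.10, the extremes being *Npas1* at -0.17 and *Prox1* at 0.19.

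**Figure D4:**
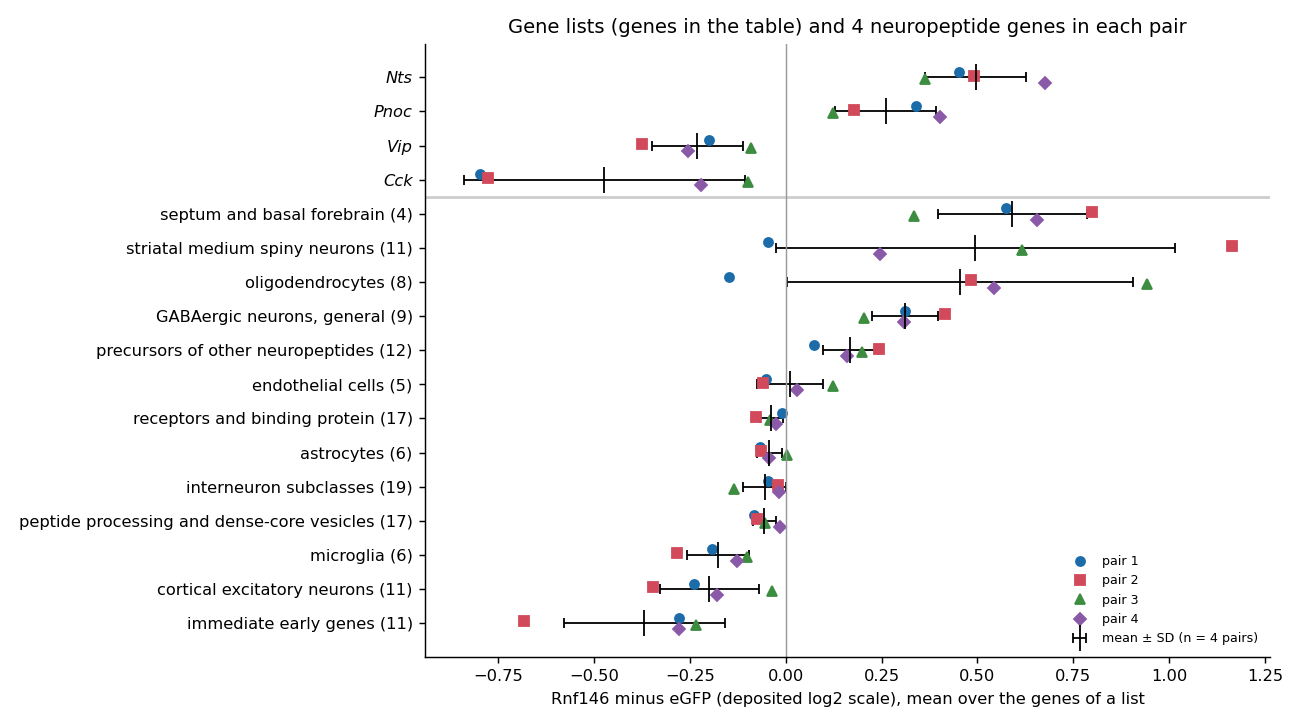
Mean difference of each gene list in the 4 pairs (Rnf146 minus eGFP, log2 scale; number of genes in brackets) with mean and SD over pairs, and 4 neuropeptide genes above the line. *Nts*, *Pnoc* and the septal, general GABAergic and other-precursor lists are above 0 in every pair, and *Cck* in pairs 1 and 2 lies below every list.

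The list of cortical excitatory neurons, which make much of the *Cck* and *Adcyap1* RNA, was lower in all 4 pairs, by -0.24, -0.35, -0.03 and -0.18. Of its 11 genes, *Slc17a7* and *Neurod2* were called, both lower, at -0.30 each. Over all genes, 0.432% were called lower. The list mean was 11.90 to 12.05 in the eGFP libraries and 11.71 to 11.86 in the Rnf146 libraries, which restates its shared sign in the 4 pairs. Immediate early genes, which neurons switch on with activity, were lower as well. Of 11 genes, 3 were called, *Fos*, *Fosb* and *Junb*, at -0.51, -0.42 and -0.44, and 10 were lower in all 4 pairs. The mean of that list was -0.28, -0.68, -0.23 and -0.28. Pair 2, where it was lowest, also held the lowest differences of *Vip*, *Adcyap1* and *Crh*, whereas *Cck*, *Npy*, *Sst* and *Cort* were lowest in pair 1 and *Tac2* in pair 3. The part of these lists in the peptide differences was not tested.

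The lists of other cells gave 0 calls among 8 oligodendrocyte, 6 astrocyte, 6 microglia and 5 endothelial genes. The oligodendrocyte list ran from -0.15 in pair 1 to 0.94 in pair 3, with *Mbp*, which encodes myelin basic protein, at a mean of 0.51. The microglia list, with *Csf1r* and *C1qa* lowest at -0.35 and -0.24, had a mean of -0.18 ± 0.08 (SD, n = 4 pairs). The astrocyte list, with *Gfap* and *Aldh1l1* lowest at -0.13 and -0.10, and the endothelial list, with *Kdr* and *Flt1* at -0.04 and 0.03, had means of -0.04 and 0.01.

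For the 4 peptide genes among the 5% of genes with the largest root mean square difference, the genes with the nearest pattern over the 4 pairs were found by Euclidean distance. Nearest to *Nts* were *Usp29*, *Gfra1* and *Col25a1*, at distances of 0.14, 0.15 and 0.19. All 3 were called, with means of 0.47, 0.48 and 0.46, which follows largely from picking genes close to a called gene. Nearest to *Pnoc* were *Sparc*, *Pip5k1b* and *Acacb*, with distances of 0.07, 0.12 and 0.13. *Cck* had *Npas4*, an activity-dependent transcription factor, as its nearest gene at 0.18, with differences of -0.66, -0.76, -0.21 and -0.21, followed by *Csf1r* and *Fmnl1*. *Npy* had *Vgf*, *Pcsk1n* and *Ttc9b*, all at distances of 0.10 to 0.11, and *Vgf* and *Pcsk1n* are on the list of processing genes. With 4 points per gene, these neighbours are a description only.

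Several peptide genes are textbook targets of CREB, a factor that binds the cyclic AMP response element (CRE). Promoters are shown for *Nts*, which was higher, for *Cck* and *Vip*, which were lower in all 4 pairs, and for *Sst*, a well-studied carrier of the element. RefSeq promoter sequences (GRCm38.p6) were at hand for 8 of the 10 genes, without *Crh* and *Pnoc*. The 120 bases before the start are printed 5′ to 3′, with capitals for the full CRE (TGACGTCA), its 5-base core (TGACG, or CGTCA on the other strand) and TATAAA. The windows are chr10:102490419-102490538, minus strand, for *Nts*, chr9:121495695-121495814, minus strand, for *Cck*, chr10:5639098-5639217, plus strand, for *Vip*, and chr16:23890845-23890964, minus strand, for *Sst*.
Nts: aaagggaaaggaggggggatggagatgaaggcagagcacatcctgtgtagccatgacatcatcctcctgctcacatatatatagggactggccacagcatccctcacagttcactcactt
Cck: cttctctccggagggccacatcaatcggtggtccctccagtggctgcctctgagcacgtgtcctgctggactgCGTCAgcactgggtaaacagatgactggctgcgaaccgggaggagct
Vip: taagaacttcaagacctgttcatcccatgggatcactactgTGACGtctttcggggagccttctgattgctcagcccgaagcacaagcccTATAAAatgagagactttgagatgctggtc
Sst: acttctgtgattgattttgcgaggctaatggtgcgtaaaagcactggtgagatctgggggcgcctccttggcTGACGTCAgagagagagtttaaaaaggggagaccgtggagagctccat

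The full CRE was found in *Sst*, starting 48 bases before the start, and in none of the other 7 genes within 250 bases. Among all 32851 promoters of the same length, 1.55% held it. The 5-base core was found in *Cck*, 47 bases before the start, in *Vip* at 79, in *Adcyap1* at 91 (and at 242 for its other start), in *Cort* at 18 and in *Nts* at 166, outside the printed stretch, besides its 2 overlapping copies in the full CRE of *Sst*. The core occurred in 17.8% of all promoters, and TATAAA in 7.59%. The core was thus present in genes that were higher (*Nts*), lower in all 4 pairs (*Cck*, *Vip*, *Adcyap1*) and of mixed direction (*Sst*, *Cort*). Only exact letters were searched, so near matches, such as tgacatca in the printed stretch of *Nts*, were not counted. A match is a description of the letters and not of a bound site.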

How the data were processed

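RNA of 8 PFC libraries was sequenced from stranded mRNA libraries. The authors used Cutadapt for trimming and Salmon 1.9.0, with GENCODE vM30 (GRCm39), for transcript abundance, and DESeq2 is named in the submitters' processing notes. Although named normalized counts, the deposited table holds log2 values from 7.86 to 18.8. For every gene, the sum over the 2 libraries of a replicate number is equal in all pairs (largest spread 1.4e-13), so the authors had centred them; the transformation and the centring are not given in the sources used here. Samples were grouped by their titles, and the 8 columns were matched by name; 0 columns were left unused.

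The model was limma 3.58.1 under R 4.3.3 (eBayes with trend; Benjamini-Hochberg adjustment over 15039 genes) with the replicate number as a block. The pairing rests on the replicate numbers and on the centring, which fixes the correlation of paired deviations. With the block, 3 residual degrees of freedom remain, and without it 6 are counted. With 4 pairs, the smallest two-sided p of an exact permutation of signs is 0.125, so none is given. Replicates are taken as separate mice, which the labels do not state; otherwise p-values measure only the spread between libraries. The count scale is a variance-stabilizing curve fitted to the mean counts of 294 genes in the supplementary tables (median absolute residual 0.0068, largest 0.538). An offset of 0.5 was added to the back-transformed counts before log2 was taken. *Cck* and *Adcyap1* overlap non-coding genes on the opposite strand that are not in the table. Gene positions are those of GENCODE vM39. The fit was also run on simulated pairs in which genes varied independently, which does not measure its error rate where genes move together. Python 3.11.15, numpy 2.4.6, scipy 1.17.1 and pandas 2.3.3 were used.

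The 10 genes and the gene lists were chosen with earlier results of these data known. Named genes are the 10 members, *Rnf146*, the called genes of each list or, where fewer than 2 were called, the 2 with the largest differences, and the 3 nearest genes of members in the top 5% by root mean square; the receptors named by ligand and *Tac1* and *Penk* were added after their values were seen. A gene that this rule would name among the oligodendrocyte markers is not reported here.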

Additional observations from a re-analysis of the deposited data

Results flagged for a closer look

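In each of 58 values named or summarized here, the most distant of the 4 pair differences was compared with the other 3, and about 5% would pass by chance. In 2 of them, its gap to the nearest took up more of the whole range than Dixon's 95% limit. For the immediate early gene list, pair 2 had a mean of -0.68, while pairs 1, 3 and 4 had -0.28, -0.23 and -0.28. *Aldh1l1*, an astrocyte gene, stood at -0.050 in pair 1 and at -0.11 in each of the others, a small difference in absolute size. None of the 10 neuropeptide genes passed, *Npy* and *Sst* in pair 1 included.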

How the results depend on the processing

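*Nts* was called in every setting in which it was tested. Its adjusted p-values were 0.00038 (without the block) to 0.017 in settings that keep all 4 pairs, and 0.022 to 0.098 with a pair left out. It was not tested when the 25% of genes with the lowest means were left out, which removed *Nts*, *Crh*, *Tac2* and *Cort*, so that 0 of the remaining members were called. With no replicate block, 3226 genes and 5 of the 10 members were called (*Cck*, *Vip*, *Crh*, *Pnoc* and *Nts*), against 21.5% of all genes. The centred values are then counted as 8 independent libraries, so that the p-values are too small. With array weights, 355 genes and 3 members (*Vip*, *Pnoc* and *Nts*) were called, and *Cort* turned to 0.016. At an adjusted p of 0.05, 80 genes were called. With a pair left out, the number of called genes ran from 14 (without pair 4) to 421 (without pair 1), with 42 without pair 2, and that of members from 1 to 2. The median of the members ran from -0.12 to -0.050, and was -0.20 on back-transformed counts, a scale that is not compressed. *Sst* ran from -0.10 to 0.033 and *Cort* from -0.067 to 0.046, changing sign. The cause was not tested. Library depth is unknown, and *Crh* and *Cort* lay at only about 58.5 and 44.2 normalized counts.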
